A study of Mus musculus with 20 samples.

Results

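CC chemokines and their receptors were described across 20 RNA sequencing libraries of mouse skin and muscle. The 10 genes were a given list, 8 ligands (Ccl2, Ccl3, Ccl4, Ccl5, Ccl7, Ccl8, Ccl11 and Ccl20) and 2 receptors (Ccr1 and Ccr2), out of 35579 genes to which the deposited counts could be summed. The list was drawn up with earlier results of these data known. The mice were C57BL/6J, genotype WT, and their left hindlimb received 35 Gy of electrons from an ElectronFlash linear accelerator at ultra-high dose rate (FLASH) or conventional dose rate (CONV), or no irradiation (sham). Skin and muscle of that limb were taken 70 days later, and each tissue gave 3 sham, 4 FLASH and 3 CONV libraries. The labels give batch 1 to every skin library and batch 2 to every muscle library, and the effect of tissue and that of batch cannot be told apart. The age and sex of the mice are not given in the sources used here, nor whether each replicate was a separate animal, so p-values here speak only of the scatter among the libraries, some of which may be technical.

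Chemokines are small secreted proteins that guide the movement of white blood cells along concentration gradients by binding receptors that couple to G proteins. The CC class carries adjacent cysteines near the start of the mature protein. Ccl2 and Ccl7 attract monocytes, largely through Ccr2, whereas Ccl3, Ccl4 and Ccl5 act on monocytes, macrophages and lymphocytes and are made in quantity by activated macrophages, neutrophils and lymphocytes. In injured skin these genes are known for bringing monocytes and neutrophils into the wound.

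The 39 coding bases around the adjacent cysteine codons are shown for 7 ligands, because this pair of codons defines the class. Capitals mark the cysteine codons, and the sequences, from GENCODE M21 transcripts on GRCm38, run 5′ to 3′ on the coding strand.
Ccl2: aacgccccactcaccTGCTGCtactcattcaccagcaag
Ccl7: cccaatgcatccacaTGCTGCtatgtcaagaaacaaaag
Ccl8: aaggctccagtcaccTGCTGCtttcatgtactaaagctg
Ccl11: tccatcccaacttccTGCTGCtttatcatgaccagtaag
Ccl4: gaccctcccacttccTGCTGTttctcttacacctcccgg
Ccl5: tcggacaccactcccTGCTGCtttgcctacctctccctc
Ccl20: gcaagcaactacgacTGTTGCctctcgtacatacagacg
Of these 7, the Ccl20 stretch was the one that crossed an intron. By GENCODE M21, 7 of the 8 ligand genes lie on chromosome 11 in 2 clusters. Ccl2, Ccl7, Ccl11, Ccl12 and Ccl8 lie within 81.2 kb (chr11:82035571-82116799), and Ccl5, Ccl9, Ccl6, Ccl3 and Ccl4 within 138.9 kb (chr11:83525778-83664683). Ccl20 is alone on chromosome 1 (chr1:83116766-83119167). Ccr1 and Ccr2 lie with Ccr3 within 151.4 kb of chromosome 9 (chr9:123962124-124113557). kallisto divides reads between similar transcripts, so related genes could exchange a few reads.

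The RefSeq promoter table (GRCm38.p6) held 5 of the 10 genes (Ccl3, Ccl8, Ccl20, Ccr1 and Ccr2). The 250 bases before the start are shown for Ccl3 (chr11:83649379-83649628, minus strand), Ccl8 (chr11:82114935-82115184, plus strand) and Ccr1 (chr9:123968693-123968942, minus strand). All 5 had a higher mean in the CONV skin libraries than in the others, so this does not set the 3 shown apart. Capitals mark the matched motifs.
Ccl3: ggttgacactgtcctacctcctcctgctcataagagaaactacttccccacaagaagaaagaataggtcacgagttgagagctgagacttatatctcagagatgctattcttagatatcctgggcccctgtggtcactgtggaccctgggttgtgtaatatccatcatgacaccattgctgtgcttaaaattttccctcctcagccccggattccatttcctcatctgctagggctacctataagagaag
Ccl8: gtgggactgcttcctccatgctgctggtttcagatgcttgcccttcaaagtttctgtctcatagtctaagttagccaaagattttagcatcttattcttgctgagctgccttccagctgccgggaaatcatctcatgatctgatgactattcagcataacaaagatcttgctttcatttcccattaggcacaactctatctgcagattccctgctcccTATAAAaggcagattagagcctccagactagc
Ccr1: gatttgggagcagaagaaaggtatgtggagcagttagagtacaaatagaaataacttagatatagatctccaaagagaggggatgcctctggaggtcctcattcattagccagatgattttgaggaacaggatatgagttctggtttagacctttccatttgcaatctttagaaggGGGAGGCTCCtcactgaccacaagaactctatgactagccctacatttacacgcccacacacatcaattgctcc
Windows of 300 bases (250 before to 50 after the start) were searched on both strands for κB, AP-1 (TGANTCA), GAS (TTCNNNGAA), the TATA box (TATAAA) and an ISRE core (GAAA and GAAA with NN between them). A κB match stood 74 bases before the start of Ccr1 and 80 before that of Ccl20, where 8.18% of 27025 promoters hold one. A TATA box stood 32 bases before the start of Ccl8, a motif held by 14.2% of promoters. No AP-1, GAS or ISRE core match was found in the 5 windows, where 7.93%, 8.47% and 3.49% of promoters hold one. The matched motifs did not overlap each other. These matches describe letters only.

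For 7 records, 2 of skin and 5 of muscle, the file is named after the library of a different record, all within sham and FLASH. Groups here follow the record, and no CONV file was affected. The set of 3 CONV libraries against the other 7 of a tissue is therefore the same under either reading, and it is given first. A skin library held 24396463 to 33250762 estimated counts and a muscle library 10198699 to 12336479, so that a gene of equal share got fewer counts in muscle. Defining markers matched the tissue labels, with a summed basal keratinocyte level (6 genes, led by Krt5 and Krt14) of 5560 to 27300 CPM (counts scaled to library size by TMM) in skin against 10.1 to 22.3 in muscle. Skin sham 1 and FLASH 2 also held skeletal muscle RNA (8 genes, led by Acta1 and Ckm), at 21800 and 20100 CPM against 34.1 to 2520 in the other 8 skin libraries and 47900 to 88100 in muscle.

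In skin, Ccl3 and Ccl4, the macrophage inflammatory proteins, were higher in CONV than in the other 7 libraries, in most of which they were nearly undetected. Of those 7, only FLASH 4 held more than 5 counts of either gene. Both genes thus passed the filter on low counts through the CONV libraries, where they are high, which limits what their tests can show. Ccl2, Ccl7 and Ccl8 of the other chromosome 11 cluster and the receptor Ccr1 were also higher on average in CONV, without passing the threshold. Ccl5 and Ccl11 were not higher. In these bulk samples, a different number of cells of a type and a different amount of RNA per cell cannot be told apart.

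Ccl3, which attracts monocytes and neutrophils through Ccr1, had 5, 4 and 1 counts in sham 1 to 3 (0.188, 0.111 and 0.0319 CPM) and 1, 1, 2 and 20 counts in FLASH 1 to 4 (0.033, 0.0375, 0.0633 and 0.607 CPM). In CONV 1 to 3 it had 14, 615 and 255 counts (0.534, 29.1 and 8.2 CPM). CONV 2 and CONV 3 stood far above all others, while CONV 1 was below FLASH 4. Ccl3 was 12.6 ± 14.8 CPM in CONV (SD, n = 3) and 0.153 ± 0.208 in the other libraries (SD, n = 7), a log2 fold change of 6.30 ± 1.04 (SE, edgeR quasi-likelihood test, adjusted p = 0.0352). Ccl4, its neighbour and close relative, had 0, 1 and 4 counts in sham. It had 4, 1, 3 and 15 counts in FLASH, and its CONV counts were 12, 639 and 171. In CPM this was 0, 0.0277 and 0.128 for sham, 0.132, 0.0375, 0.0949 and 0.456 for FLASH, with CONV at 0.458, 30.3 and 5.5. The CONV libraries did not overlap the others, though CONV 1 exceeded FLASH 4 only by 0.458 against 0.456 CPM. For Ccl4 the log2 fold change was 6.51 ± 1.07 (SE, adjusted p = 0.0352). The 2 genes thus had counts of the same order in each CONV library.

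Of the 20026 genes tested in skin, 331 (1.65%) passed an adjusted p of 0.05 in CONV against the other 7 libraries, 317 (1.58%) of them higher. Of the 10 CC genes, 2 (Ccl3 and Ccl4) passed, both higher. The list was drawn up with earlier results of these data known, so its standing against all genes is description only. The 10 had a median log2 fold change of 2.13, against 0.00 over all genes tested, and 8 were higher, against 50.4% of all genes. Of the 22 other CC genes tested, 10 were higher, with a median of -0.08. At an unadjusted p under 0.05 there were 7 of the 10, where 23.4% of all genes were. Ccl4 and Ccr1 did not overlap between the groups and were higher, as were 3.85% of all genes. The calls of Ccl3 and Ccl4 hung on single libraries. None of the 10 passed without any 1 of sham 1, 2 or 3, FLASH 1, 2 or 3, or CONV 2 or 3. There were 6 without FLASH 4 and 5 without CONV 1. With CONV 2 left out the log2 fold change was 4.78 for Ccl3 and 4.50 for Ccl4. None passed without the 2 skin libraries rich in muscle RNA, or without those whose file names disagree. DESeq2 called 6 (Ccl2, Ccl3, Ccl4, Ccl7, Ccl8 and Ccr1) among 2034 of 21979 genes (9.25%).

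**Figure D1:**
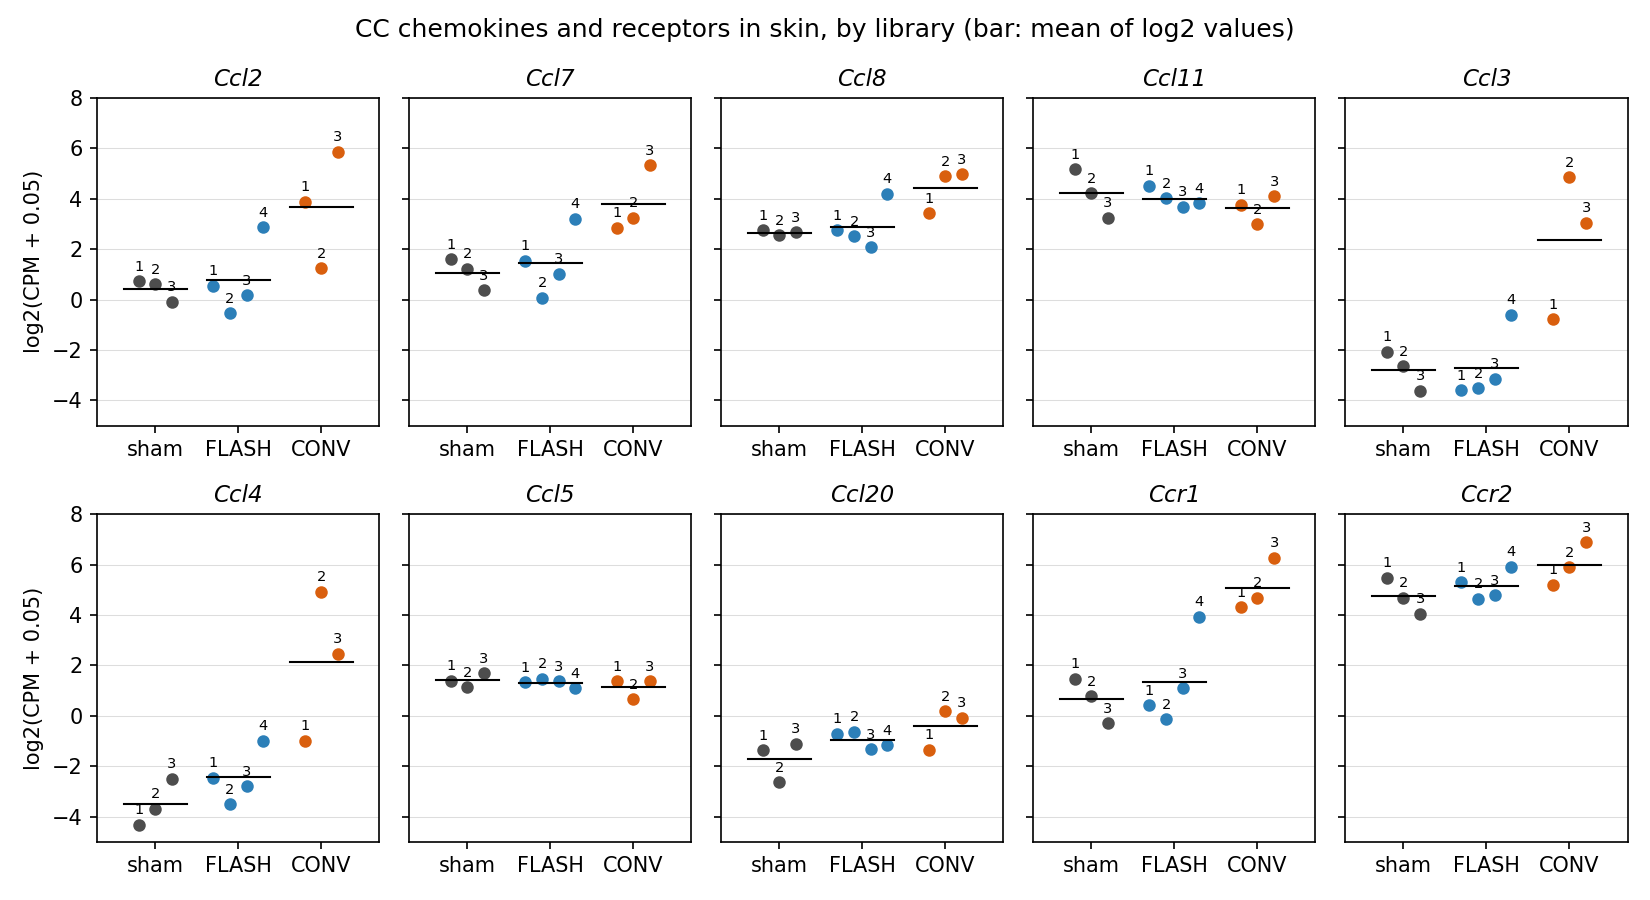
Level of each gene in the 10 skin libraries, as log2(CPM + 0.05) on the vertical axis, with sham, FLASH and CONV on the horizontal axis. Points are libraries, numbered by replicate, and bars are means of the log2 values. CONV 2 is highest for Ccl3 and Ccl4 (29.1 and 30.3 CPM) and CONV 3 for Ccl2, Ccl7, Ccl8, Ccr1 and Ccr2, while Ccl5 is level.

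Ccl2 and Ccl7 had another order among the CONV libraries. Ccl2, the main ligand of Ccr2, measured 1.61, 1.47 and 0.894 CPM in sham 1 to 3, and 1.42, 0.637, 1.08 and 7.29 CPM in FLASH 1 to 4. It measured 14.7, 2.32 and 58.5 CPM in CONV 1 to 3. CONV 2, the library highest in Ccl3 and Ccl4, was below FLASH 4 here, so the groups overlapped. The log2 fold change of Ccl2 against the other 7 was 3.61 ± 0.88 (SE, adjusted p = 0.0639), and it was 2.04 without CONV 3. Ccl7, a ligand of Ccr1, Ccr2 and Ccr3, measured 3, 2.3 and 1.24 CPM in sham, 2.87, 1.01, 1.99 and 9.2 CPM in FLASH, and for CONV 7.17, 9.43 and 40.3 CPM. FLASH 4 again lay among the CONV libraries. Ccl7 had a log2 fold change of 2.62 ± 0.68 (SE, adjusted p = 0.0735) and 1.40 without CONV 3. The ratio of the neighbours Ccl2 and Ccl7 was not fixed, with 384 and 188 counts in CONV 1 but 49 and 199 in CONV 2.

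Ccl8, made by resident macrophages, had measurable levels in every skin library. It stood at 6.65, 5.81 and 6.29 CPM in sham, 6.69, 5.66, 4.18 and 18.4 CPM in FLASH, with CONV at 10.8, 29.9 and 31.2 CPM. The sham libraries were close together and all CONV libraries lay above them, whereas FLASH 4 lay above CONV 1. The log2 fold change against the other 7 was 1.64 ± 0.44 (SE, adjusted p = 0.0815). Ccl11 (eotaxin), the eosinophil attractant of the same cluster, measured 36.2, 18.6 and 9.51 CPM in sham, 22.9, 16.2, 12.8 and 14.1 CPM in FLASH, with CONV at 13.5, 7.91 and 17.2 CPM. All groups overlapped, and its log2 fold change was -0.53 ± 0.40 (SE, adjusted p = 0.433).

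Ccl5 (RANTES), typical of T cells and natural killer cells, measured 2.59, 2.16 and 3.16 CPM in sham, 2.47, 2.74, 2.53 and 2.1 CPM in FLASH, with CONV at 2.56, 1.52 and 2.54 CPM. Its log2 fold change was -0.20 ± 0.21 (SE, adjusted p = 0.595), the narrowest error of the 10 genes in this comparison. Ccl20, which attracts cells bearing Ccr6 and is made by keratinocytes, was scarce, with 4 to 13 counts in sham, 11 to 17 in FLASH and 9, 23 and 28 in CONV. CONV 2 and CONV 3 (1.09 and 0.9 CPM) were the highest libraries and CONV 1 (0.343 CPM) was within the sham range. Its log2 fold change was 0.97 ± 0.46 (SE, adjusted p = 0.235).

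Ccr1, a receptor of neutrophils, monocytes and macrophages for Ccl3, Ccl5 and Ccl7, measured 2.74, 1.66 and 0.766 CPM in sham 1 to 3. It measured 1.29, 0.862, 2.09 and 15.2 CPM in FLASH 1 to 4, and 19.7, 25.7 and 77.6 CPM in CONV 1 to 3. Every CONV library was above every other one, and FLASH 4 stood between them and the rest. Ccr1 had a log2 fold change of 3.54 ± 0.89 (SE, adjusted p = 0.0683), and it passed without FLASH 4 (4.71, adjusted p = 0.00252). Ccr2, the receptor that releases monocytes from bone marrow and draws them to Ccl2, measured 44.8, 25.7 and 16.6 CPM in sham, 39.4, 25, 27.7 and 60.3 CPM in FLASH, with CONV at 36.9, 59.3 and 118 CPM. CONV 3 stood above all, CONV 1 was within the sham range, and the log2 fold change was 1.06 ± 0.41 (SE, adjusted p = 0.160).

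Levels were compared between genes as TPM, which corrects for transcript length. In sham skin the order was Ccl11 (43.6 ± 23 TPM, SD, n = 3), Ccl8 (34.8 ± 2.43), Ccr2 (16.4 ± 6.34), Ccl5 (10.4 ± 2.55), Ccl7 (6.51 ± 2.16), Ccl2 (3.64 ± 0.773), Ccr1 (1.21 ± 0.585), Ccl20 (0.802 ± 0.386), Ccl3 (0.341 ± 0.214) and Ccl4 (0.216 ± 0.279). Within 1 SD, neighbours in this order overlapped, except Ccl8 with Ccr2 and Ccl2 with Ccr1. In CONV the order was Ccl8 (116 ± 55.4 TPM, SD, n = 3), Ccl2 (70.3 ± 83.8), Ccl7 (53.6 ± 56), Ccl4 (36.9 ± 45.5), Ccr2 (36.7 ± 24), Ccl3 (32.5 ± 35), Ccr1 (27.4 ± 23.2), Ccl11 (24.9 ± 11.3), Ccl5 (8.41 ± 3.35) and Ccl20 (1.94 ± 0.945). There, Ccl5 lay apart from Ccl11 and Ccl20 from Ccl5, and the other neighbours overlapped within 1 SD. Ccl3 and Ccl4 were thus the 2 lowest genes in sham and above Ccl11 and Ccl5 in mean TPM in CONV. By library, both were above Ccl11 only in CONV 2 (70.6 and 88.4 against 12.7 TPM). In CONV 1 both were also below Ccl5 (1.64 and 1.7 against 9.68 TPM).

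Against sham alone, Ccl3 had a log2 fold change of 6.81 ± 1.61 in CONV skin (SE, adjusted p = 0.127), Ccl4 of 7.72 ± 1.68 (adjusted p = 0.127), Ccr1 of 4.58 ± 1.22 (adjusted p = 0.130) and Ccl2 of 4.25 ± 1.26 (adjusted p = 0.146). For Ccl4, whose sham libraries held 5 counts in all, the fold is imprecise. Ccl7 was at 3.12 ± 0.93, Ccl8 at 1.94 ± 0.58, Ccl20 at 1.43 ± 0.57 and Ccr2 at 1.30 ± 0.52, whereas Ccl5 and Ccl11 were at -0.25 ± 0.27 and -0.73 ± 0.47 (log2 fold change ± SE). edgeR called 0 of 20026 genes in this comparison (0%), with 4035 (20.1%) at an unadjusted p under 0.05, among them 8 of the 10. DESeq2 called 1575 of 21935 genes (7.18%), among them Ccl2, Ccl3, Ccl4, Ccl7, Ccl8 and Ccr1. These 6 were also higher in every CONV library than in every sham library, as were 13.6% of all genes. With files assigned by library name, the adjusted p was 0.0669 for Ccl3 and Ccl4 and 0.0761 for Ccr1. Leaving out CONV 1 brought 406 genes past the threshold, Ccl3 and Ccl4 among them, and leaving out FLASH 4 brought 89, with Ccr1 among them.

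FLASH skin was set against CONV and against sham in the same fit, so these comparisons share libraries with the others. Ccl3 and Ccl4 were lower in FLASH than in CONV by a log2 fold change of -6.02 ± 1.34 and -6.00 ± 1.31 (SE, adjusted p = 0.249 for each). Ccl2 was at -3.27 ± 1.07, Ccr1 at -3.07 ± 1.01, Ccl7 at -2.33 ± 0.81, Ccl8 at -1.45 ± 0.52 and Ccr2 at -0.91 ± 0.47. edgeR called no gene (0%), with 2540 of 20026 (12.7%) at an unadjusted p under 0.05. DESeq2 called 459 of 20852 genes (2.2%), among them Ccl2, Ccl3, Ccl4 and Ccr1. Without CONV 1, edgeR called 117, with Ccl3 and Ccl4 among them. Ccl4 and Ccr1 were lower in every FLASH library than in every CONV library, as were 4.73% of all genes.

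Between FLASH and sham skin, the 10 genes ranged from a log2 fold change of -0.38 ± 0.43 for Ccl11 to 1.72 ± 1.67 for Ccl4, each with an adjusted p of 1. Of all genes, edgeR called 0 (0%), with 132 (0.659%) and none of the 10 at an unadjusted p under 0.05, and DESeq2 called 4, none of them a CC gene. The sign of 5 of the 10 changes turned on FLASH 4. Without it, the log2 fold change turned from 0.98 to -0.34 for Ccl2, from 0.80 to -1.18 for Ccl3, from 0.79 to -0.15 for Ccl7, from 0.48 to -0.18 for Ccl8 and from 1.50 to -0.28 for Ccr1. Ccr1 had an SE of 1.04 in the fit with all libraries, so that changes of this size in either direction were not detectable.

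**Figure D2:**
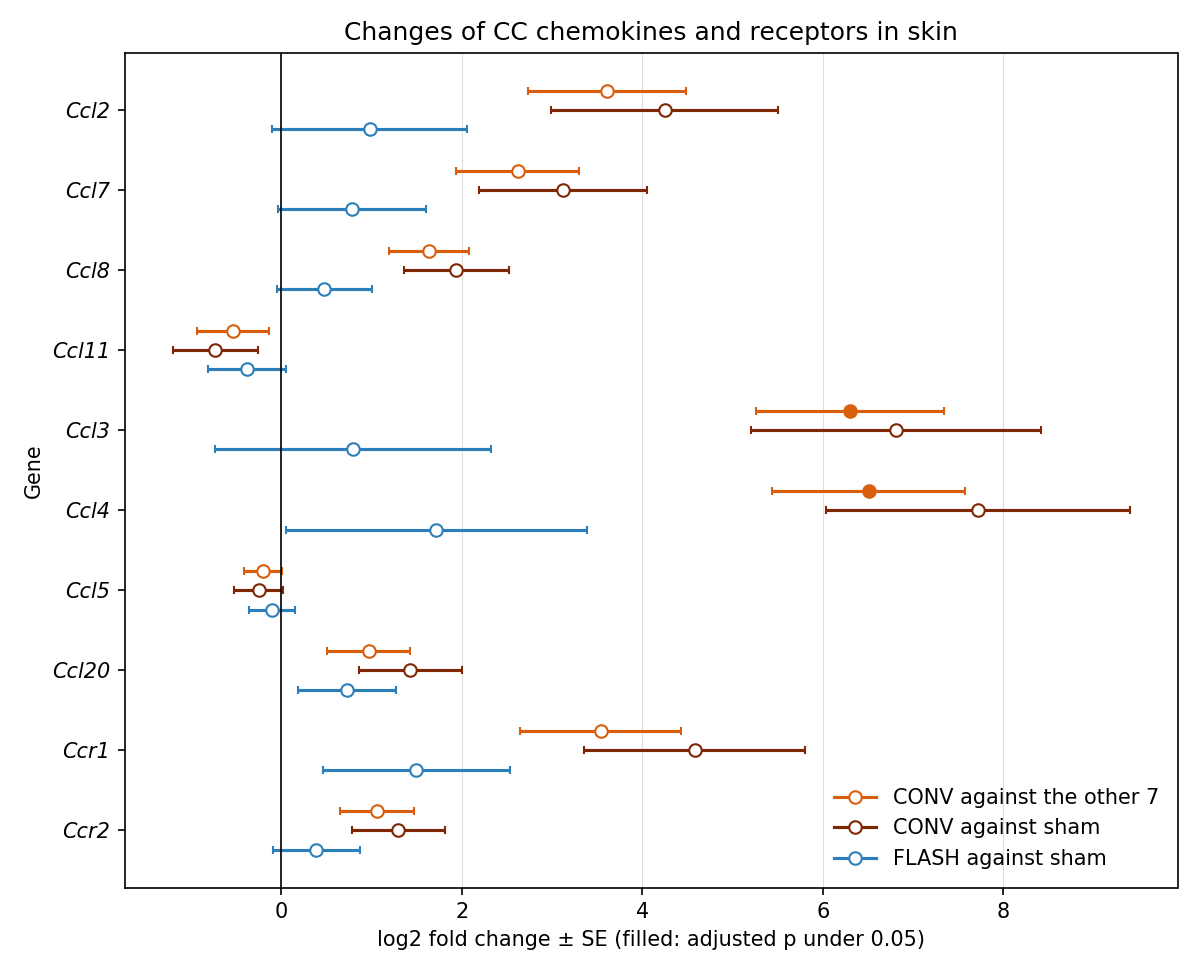
Log2 fold change ± SE (horizontal axis) of each gene (vertical axis) in skin for CONV against the other 7 libraries, CONV against sham and FLASH against sham, which share libraries. Filled points, Ccl3 and Ccl4 in CONV against the other 7, have an adjusted p under 0.05, and the FLASH values lie between -0.38 and 1.72.

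Markers of several cell types moved with these genes. Summed monocyte and macrophage markers (12 genes, led by Adgre1 and Csf1r) were 315 to 460 CPM in sham, 387 to 815 in FLASH and 722 to 1600 in CONV, and all 12 were higher in CONV than in the other 7, 4 of them past the threshold. Summed neutrophil markers (10 genes, led by S100a8 and S100a9) were 32.4 to 40 CPM in sham, 25.4 to 112 in FLASH and 208 to 749 in CONV, and 4 of 9 tested were past the threshold, higher in CONV. Of all genes tested, 1.58% were past the threshold and higher, and 50.4% were higher with or without passing. These calls hung on single libraries too, since no gene at all passed without any 1 of sham 1, 2 or 3 or FLASH 1, 2 or 3, and 1 gene passed without CONV 3. FLASH 4 had the highest monocyte and macrophage sum and the highest neutrophil sum among the FLASH libraries. Wound keratinocyte markers (6 genes) summed to 185 to 546 CPM in sham, 286 to 7860 in FLASH and 6110 to 22600 in CONV, none past the threshold. Summed fibroblast markers (6 genes, led by Col1a1 and Col1a2) were 5870 to 8430 CPM in the other 7 libraries and 10100 to 29800 in CONV, with 3 past the threshold, higher in CONV. Endothelial markers (6 genes) summed to 112 to 353 CPM in the other 7 and 304 to 806 in CONV, with all 6 higher and 1 past the threshold. Mast cell markers (6 genes) summed to 27.4 to 121 CPM in the other 7 and 56 to 156 in CONV, with all 6 higher and none past the threshold. Summed T cell markers (8 genes), beside which Ccl5 can be read, were 46.8 to 55.7 CPM in sham, 35.3 to 61 in FLASH and 36 to 43.1 in CONV. Summed natural killer cell markers (6 genes) were 8.65 to 11.3 CPM in sham, 6.93 to 12.5 in FLASH and 5.31 to 10.4 in CONV. Eosinophil markers (5 genes), for Ccl11, summed to 2.41 to 5.08 CPM in CONV against 4.02 to 10.5 in the other 7, with Epx at 0 in sham 1 and CONV 1. All 6 adipocyte and all 8 skeletal muscle markers were lower in CONV than in the other 7, none past the threshold. Dendritic cell, basal keratinocyte and hair shaft markers were mixed (4 of 7, 3 of 6 and 3 of 8 higher). The part of these cells in the CC gene values was not tested.

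The protein-coding genes closest to each CC gene over the 10 skin libraries were found from the mean absolute difference of log2 CPM after centring. For Ccl3 they were Nlrp3 (0.48), Sprr2f (0.54) and Cd14 (0.57), where the median over 17674 genes was 2.18. For Ccl4 they were Sprr2f (0.49), Stfa2l1 (0.65) and Slfn4 (0.71), with a median of 2.10. Ccl2 was closest to Sele (0.36), Hgf (0.37) and Il1rl1 (0.37), and Ccr1 to Ifitm1 (0.45), Selp (0.45) and Ptgs2 (0.49), with medians of 1.63 and 2.03. Ccl8 was closest to C1qc (0.18), Apobr (0.22) and C1qa (0.22), with a median of 0.90, and Ccl7 to Cyp7b1, Lilr4b and Lilrb4a (0.19 to 0.29). Ccr2 was closest to Lhx6, Clec4a3 and Adm (0.14 to 0.15). The genes nearest Ccl5, Ccl11 and Ccl20 were Olfr510 (0.09), Ccdc170 (0.16) and Vgf (0.21), with medians of 0.36, 0.54 and 0.60. Ccl5 spanned only 1.03 in log2 over the libraries, against 8.19 for Ccl3, so any gene that varies little lies near it. All these distances are descriptions over libraries that share their groups.

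Of the other CC genes, 24 were listed (13 ligands and 11 receptors or decoys), and 22 were tested in skin. None passed in CONV against the other 7 (edgeR, 9 of the 22 at an unadjusted p under 0.05, where 23.4% of all genes were), with a median log2 fold change of -0.08. DESeq2, which called 9.25% of all genes, called Ccl21a, Ccl24, Ccl27a, Ccl28 and the decoy receptor Ackr4. Ccl21a, which guides dendritic cells and T cells through Ccr7, was 48.4 ± 24.9 CPM in CONV (SD, n = 3) and 21.5 ± 5.06 in the others (SD, n = 7), a log2 fold change of 1.17 ± 0.28 (SE, adjusted p = 0.0621). It has near-identical copies, so its value is uncertain. Ccl24, an eosinophil attractant, was 2.9 ± 0.174 CPM against 4.65 ± 0.807 (-0.68 ± 0.19, adjusted p = 0.0897). Ccl28, an epithelial chemokine, was 5.46 ± 0.185 CPM against 8.66 ± 1.89 (-0.66 ± 0.20, adjusted p = 0.106). Ccl21a was above, and Ccl24 and Ccl28 were below, every other library in all CONV libraries, as were 3.85% and 2.62% of all genes.

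**Figure D3:**
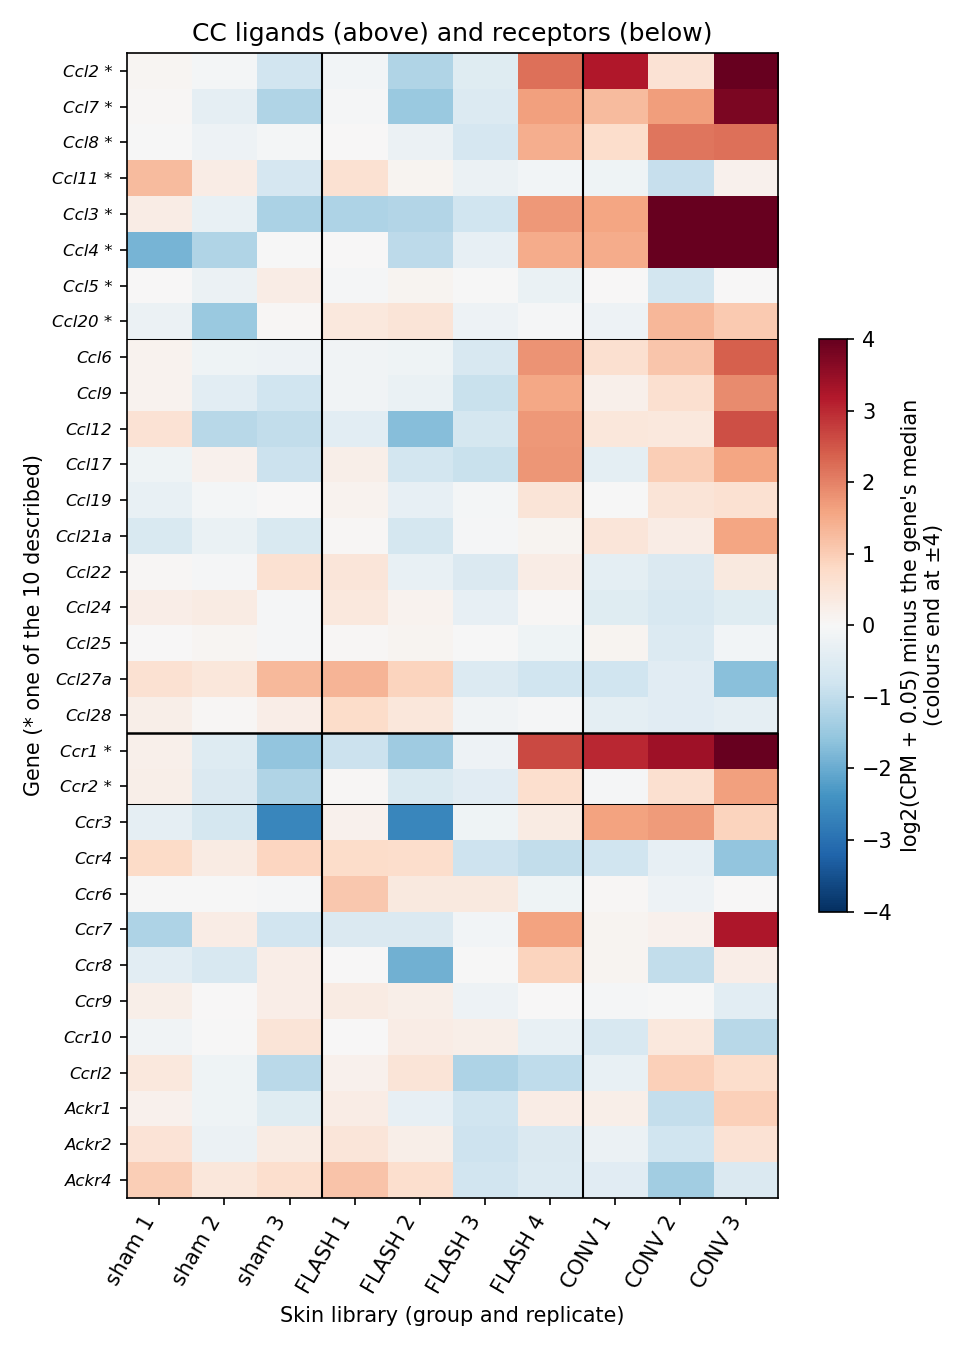
Log2(CPM + 0.05) minus the gene's median over the 10 skin libraries (colour, ending at ±4) for the 32 CC ligands and receptors tested in skin, in rows, with libraries in columns. The 10 genes described are starred, and high values gather in CONV and in FLASH 4 for Ccl2, Ccl3, Ccl4, Ccl7, Ccl8 and Ccr1.

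In muscle, 2 of the 10 genes, Ccl11 and Ccr2, passed the filter on low counts, with 46 to 72 and 6 to 84 counts in a library. Ccl20 had no count in any library, where 3 counts correspond to 0.234 to 0.307 CPM per library. Ccl3 and Ccl4 had at most 2 counts in a library, Ccl5 and Ccl7 at most 4 and Ccr1 at most 9. Ccl2 had 2, 1 and 3 counts in sham. Its counts were 8, 0, 1 and 3 in FLASH, against 9, 11 and 4 in CONV. By mean TPM over the 10 libraries the order was Ccl11 (7.78), Ccl8 (2.26), Ccr2 (1.38), Ccl2 (0.755) and Ccl5 (0.454), and the ranges of neighbours in this order overlapped over libraries.

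Ccl11 was the steadiest, at 4.97, 5.85 and 5.47 CPM in sham. It was at 5.31, 6.28, 4.71 and 5.17 CPM in FLASH, with 5.03, 4.19 and 5.56 CPM for CONV. Its log2 fold change in CONV against the other 7 was -0.13 ± 0.14 (SE, adjusted p = 0.756). Ccr2 measured 0.764, 2.46 and 6.55 CPM in sham, 3.05, 1.74, 0.614 and 4.72 CPM in FLASH, with CONV at 2.88, 6.76 and 4.09 CPM. The log2 fold change of Ccr2 was 0.68 ± 0.60 (SE, adjusted p = 0.704), and all groups overlapped. Neither passed, where 8 of 13080 genes (0.0612%) did and 1555 (11.9%) had an unadjusted p under 0.05 (neither of the 2 among them). DESeq2 gave an adjusted p to 6491 genes and called 172 (2.65%), neither Ccl11 nor Ccr2 among them. A gene outside those 6491 could not be called. Between single groups neither passed, with edgeR calling 1 gene (0.00765%) in CONV against sham, 1 (0.00765%) in FLASH against CONV and 0 (0%) in FLASH against sham. There, Ccr2 was at 0.49 ± 0.76, -0.84 ± 0.72 and -0.35 ± 0.75 and Ccl11 at -0.14 ± 0.17, 0.13 ± 0.16 and -0.02 ± 0.16 (log2 fold change ± SE, in that order).

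The value of muscle Ccr2 turned on how the disagreeing files are read. By library name, Ccr2 was 1.04 ± 0.613 CPM in sham (SD, n = 3), 4.19 ± 1.84 in FLASH (SD, n = 4) and 4.58 ± 1.99 in CONV (SD, n = 3), and the sham range of 0.614 to 1.74 CPM lay below the 2.46 to 6.76 CPM of the irradiated libraries. The log2 fold change to sham was then 2.10 ± 0.50 in CONV (SE, edgeR, adjusted p = 0.0655) and 1.96 ± 0.49 in FLASH (adjusted p = 0.275). Many other genes shifted under this reading. In CONV against sham 164 of 13080 genes (1.25%) passed, and 2173 had an unadjusted p under 0.05. In FLASH against sham 0 passed and 1293 had an unadjusted p under 0.05. The share of all genes with sham apart from the irradiated libraries was not computed. By record Ccr2 was 3.26 ± 2.97, 2.53 ± 1.76 and 4.58 ± 1.99 CPM. Summed monocyte and macrophage markers moved alike, at 30.8 to 61.2 CPM in sham by name, 76.9 to 91 in FLASH and 78.3 to 84.7 in CONV, against 30.8 to 91, 36.7 to 86.1 and 78.3 to 84.7 by record. Their part in the Ccr2 values was not tested.

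Ccl8 was under the filter in muscle, yet its 11, 21 and 9 counts in CONV (0.989, 1.69 and 0.736 CPM) lay above the 1, 1 and 7 counts of sham and the 3, 4, 1 and 5 of FLASH (0.0848 to 0.628 CPM). Without the filter, edgeR gave a log2 fold change of 1.97 ± 0.49 in CONV against the other 7 (SE, adjusted p = 0.0916), where 53 of 22974 genes (0.231%) passed. Ccl8 was picked here after its values were seen. The share of unfiltered genes that lay apart in this way was not computed. Summed neutrophil markers in muscle were 5.15 to 10.1 CPM in CONV against 2.48 to 3.9 in the others, with S100a8 at 0 in 4 of those 7, and their part was not tested. Among 12 other CC genes tested in muscle none passed in CONV against the other 7, with 4 at an unadjusted p under 0.05, where 11.9% of all genes were. The nearest was Ccrl2, a receptor that binds chemerin without signalling, at 1.76 ± 0.678 CPM in CONV (SD, n = 3) and 4.21 ± 0.826 in the others (SD, n = 7), a log2 fold change of -1.26 ± 0.25 (SE, adjusted p = 0.0843). Ccl19, a ligand of Ccr7, was 2.13 ± 0.828 CPM against 0.657 ± 0.271, a log2 fold change of 1.67 ± 0.34 (SE, adjusted p = 0.0875). In neither gene did CONV overlap the other libraries, where 1.98% of genes were wholly higher and 2.47% wholly lower in CONV.

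**Figure D4:**
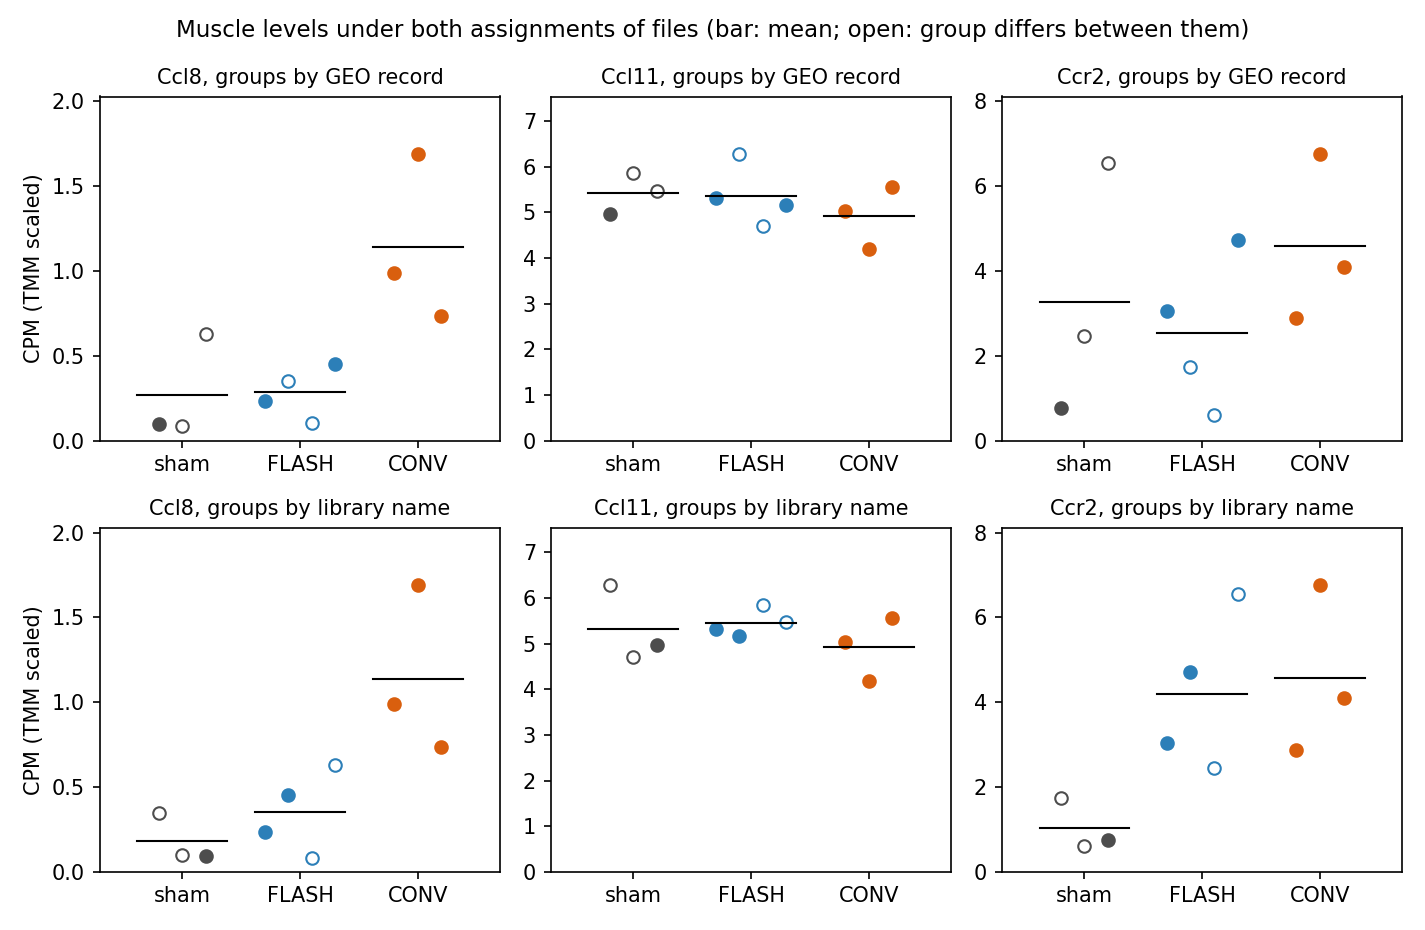
Level in CPM (vertical axis, from 0) of Ccl8, Ccl11 and Ccr2 in muscle, with groups taken from the record above and from the library name below. Points are libraries, bars are means, and open points change group between the readings. Ccr2 in sham spans 0.764 to 6.55 CPM above and 0.614 to 1.74 below.

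Whether the CONV change differed between skin and muscle was tested as the skin change minus the muscle change over all 20 libraries. The libraries were treated as independent, and any animal shared by the tissues was not modelled. For each gene 1 estimate of the spread served both tissues. When fitted alone, the common coefficient of variation among libraries was 0.414 in skin and 0.168 in muscle. None of the CC genes tested passed, where 21 of 19199 genes (0.109%) did. The difference was 2.58 ± 1.49 for Ccr1 (log2, SE, adjusted p = 0.404), 2.71 ± 1.73 for Ccl7 (adjusted p = 0.454), 2.06 ± 1.36 for Ccl2 (adjusted p = 0.474) and 4.62 ± 2.99 for Ccl3 (adjusted p = 0.461). It was 0.40 ± 0.76 for Ccr2, -0.36 ± 0.74 for Ccl8, -0.37 ± 0.42 for Ccl11 and -0.65 ± 0.64 for Ccl5. Ccl4 was under the filter and Ccl20 had no muscle count, so neither gave a difference. Of the CC genes that gave a difference, only Ccl11 and Ccr2 had passed the filter in muscle alone. The others entered through skin, and their muscle counts were few, from at most 2 in a library for Ccl3 to at most 21 for Ccl8. None had an unadjusted p under 0.05, where 16.4% of all genes did. DESeq2 gave an adjusted p to 15751 genes and called 494 (3.14%), none of them among the 10. A gene outside those 15751 could not be called. Without skin FLASH 4, 561 genes passed and Ccr1 with them (3.76).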

How the data were processed

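Per the labels, total RNA was sequenced with a stranded kit that depletes ribosomal RNA. The authors deposited, per library, estimated counts and TPM per transcript from kallisto, run at version 0.5.0 for mm10 according to the submitters' processing notes. The release of the transcripts is not given in the sources used here. Identifiers without version matched GENCODE M21 for 98.455% of transcripts. Estimated counts were summed to genes and rounded, and unmatched transcripts (0.873% to 1.85% of counts) were left out. The deposited TPM was summed over transcripts and serves levels between genes.

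edgeR 4.0.16 (R 4.3.3) fitted each tissue with the quasi-likelihood test, robust dispersion, TMM and filterByExpr, with Benjamini-Hochberg adjustment over all genes tested and a threshold of 0.05. Standard errors are the log2 fold change over the square root of F. DESeq2 1.42.0, other scalings and filters, assignment by library name and leaving out libraries were alternatives. Steps were tested on simulated data.

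The members and lists were chosen with earlier results of these data known. Named were all 10 genes, other CC genes past the threshold or the up to 3 with the smallest p, the first 2 markers of a cell type list, and the 3 genes nearest each member. Values chosen after they were seen are Ccl8 in muscle, the alternative without muscle-rich skin libraries, and the added names of other CC genes called by DESeq2. Replicates of a group differed by 7.78 to 402 in chi-square per degree of freedom over 24 pairs, so all were kept. The floor of 3 counts covers counting error only, whereas SDs and standard errors include the scatter among libraries. Some items are not reported here.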

Additional observations from a re-analysis of the deposited data

Results flagged for a closer look

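Within groups of 4 libraries, 14 sets of FLASH values of the CC genes (those averaging more than 3 counts in a library) were examined for 1 library far from the rest, and 3 were found, all FLASH 4 in skin. Chance alone flags about 1 in 20 such sets, and the 14 share libraries. Ccl2 was 7.29 CPM in FLASH 4 and 0.637 to 1.42 in the other FLASH libraries, a gap of 0.883 of the range. Ccl3 was 0.607 CPM in FLASH 4 and 0.033 to 0.0633 in the others, a gap of 0.947 of the range, on 20 counts against at most 2. Ccr1 was 15.2 CPM in FLASH 4 and 0.862 to 2.09 in the others, a gap of 0.915 of the range. In the same library summed neutrophil markers were 112 CPM and summed monocyte and macrophage markers 815 CPM, the highest of the FLASH libraries, and their part was not tested.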

How the results depend on the processing

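The main limits are few and unequal libraries in skin, low depth in muscle and 7 files whose names disagree with their records. In skin, CONV against the other libraries gave 331 genes and 2 of the 10 CC genes, which are meant by CC genes from here on. DESeq2 gave 2034 (9.25%) and 6, and leaving out the disagreeing libraries, or the 2 muscle-rich ones (chosen after seeing the data), gave 0 and 0. RLE size factors, no filter and no robust dispersion kept Ccl3 and Ccl4 past the threshold. Leaving out 1 library gave 0 to 1454 genes and 0 to 6 CC genes. CONV against sham gave 1575 genes (7.18%) and 6 CC genes with DESeq2, and 0 to 406 and 0 to 2 with 1 library left out. FLASH against CONV gave 459 (2.2%) and 4 with DESeq2, and 0 to 117 and 0 to 2 with 1 library left out. FLASH against sham gave 4 genes with DESeq2.

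In muscle, DESeq2 gave 172 genes in CONV against the others, 64 in CONV against sham, 47 in FLASH against CONV and 1 in FLASH against sham. Without the filter the first 3 were 53, 23 and 21, and without robust dispersion 2, 0 and 0. By library name, CONV against sham gave 164. Without the disagreeing libraries, where sham 1 and FLASH 4 are left beside CONV, CONV against the others gave 0. With the 2 groups alone, CONV against sham gave 2 and FLASH against CONV 0. With 1 library left out, CONV against the others gave 1 to 89, CONV against sham 0 to 29 and FLASH against CONV 0 to 24, and no CC gene passed. The log2 ratio of mean CONV to mean other Ccl11 was 0.05 from TPM against -0.13 from CPM. The difference between tissues gave 494 genes with DESeq2, 0 without the disagreeing libraries, and 0 to 561 genes and 0 to 1 CC genes with 1 library left out. The cause of these shifts was not tested.

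Small FLASH changes turned sign. In skin FLASH against sham, by library name Ccl5 was 0.13 and Ccr2 -0.18, without the disagreeing libraries Ccl5 was 0.05, and without the muscle-rich ones Ccl11 was 0.22. In muscle FLASH against sham, Ccl11 was 0.03 and Ccr2 1.96 by name, and 0.05 and 2.60 without the disagreeing libraries, where Ccr2 in FLASH against CONV was 0.04. Without those libraries, sham 1 is the only muscle sham library and FLASH 4 the only muscle FLASH library, so these values have no replication. With 1 library left out, skin FLASH against sham ranged from -0.34 to 1.30 for Ccl2, -1.18 to 1.33 for Ccl3, -0.23 to 0.05 for Ccl5, -0.15 to 1.10 for Ccl7, -0.18 to 0.72 for Ccl8, -0.73 to 0.23 for Ccl11 and -0.28 to 2.00 for Ccr1. Ccl5 ranged from -0.32 to 0.01 in CONV against the others and from -0.05 to 0.27 in FLASH against CONV. In muscle FLASH against sham, Ccl11 ranged from -0.10 to 0.04 and Ccr2 from -0.81 to 0.64, and the difference between tissues ranged from -0.70 to 0.04 for Ccl8 and -0.17 to 0.79 for Ccr2 (all log2).

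The main fits did not pair samples by replicate number. Same-numbered libraries of different groups correlated at -0.71 to 0.52 in skin (9 pairs) and -0.23 to 0.21 in muscle (9 pairs). Muscle RNA in some skin libraries and the disagreeing files enter these correlations, so they cannot decide whether samples were paired. Number 4 occurs only in FLASH, so a replicate block fits FLASH 4 by itself and takes it out of the comparisons. This cannot be told apart from an effect of pairing. Leaving out skin FLASH 4 alone gave 1454 genes and 6 CC genes in CONV against the others. With the replicate block, skin gave 1292 genes (6.45%) and 6 CC genes in CONV against the others. Skin also gave 15 genes in CONV against sham and 1 in FLASH against CONV. Muscle gave 1, 0 and 0, and the difference between tissues 345. In FLASH against sham with the block, Ccl2 was -0.58, Ccl3 -1.31, Ccl7 -0.31, Ccl8 -0.17 and Ccr1 -0.46 in skin, and Ccl11 was 0.00 in muscle.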
